A study of Mus musculus with 6 samples.

Results

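Radial glia and astroglial genes were followed across 6 mouse embryos by every array probe that the platform's annotation assigns to Pax6, Sox2, Nes, Vim, Fabp7, Slc1a3, Slc1a2, Gja1, Aldh1l1 or Fgfr3. These 10 genes, of 16593 named on the array, were measured by 19 probes, and the probe of highest mean over the 6 arrays stood for a gene in every summary. The embryos were male C57BL/6J mice at embryonic day 15, and RNA of the frontal cortex of each was read on its own Illumina MouseRef-8 v2.0 bead array. The 3 transgenic embryos carried the bacterial artificial chromosome RP24-333C15, which spans Cyfip1, and the 3 wild-type embryos, littermate controls per the labels, lacked it. The clone was placed by pronuclear injection, and which cells expressed the extra Cyfip1 was not measured. The labels do not name the founder line, nor say which embryos came from the same litter. No probe bore the name Cyfip1, so the genotype labels were not checked against its level.

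Radial glia are the stem cells of the embryonic cortex. Their cell bodies line the ventricle, their long fibres reach the pial surface, and their divisions yield neurons directly or through intermediate progenitors. After neurogenesis many of them turn into astrocytes, so that glutamate transporters, the gap junction protein connexin 43 and metabolic enzymes of astrocytes are already made by radial glia in part. Because whole tissue was used, fewer cells of a type and less RNA per cell cannot be told apart in any value below.

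The values are log2 intensities as deposited, brought to the same distribution in all arrays, with a median of 7.18. The embryos differed in tissue content. Wild-type embryo 2 had log2 intensities of 7.09 for Tbr1, a transcription factor of deep cortical neurons, and 6.79 for Dlx1, a homeobox gene of the ganglionic eminences, against 9.09 to 11.16 for Tbr1 and 11.56 to 12.96 for Dlx1 in the other 5 embryos. The midbrain and hindbrain gene En2 stood at 12.23 in wild-type embryo 2 and at 7.01 to 10.98 elsewhere, so its frontal cortex label was not borne out by these genes, which were chosen after their values were seen. Transgenic embryo 3 came next for En2 and Tbr1, at 10.98 and 9.09, but not for Dlx1, which read 12.43 there. It also had the highest mean of choroid plexus genes, 1.48 above the 6-array mean. That embryo stays in when transgenic embryo 1 and wild-type embryo 2 are left out. The muscle gene Myl1 stood at 12.90 in transgenic embryo 1 and 11.08 in wild-type embryo 3, against 7.15 to 7.19 in the other 4. Those same embryos, transgenic 1 and wild-type 3, carry animal numbers under 100 and the other 4 numbers over 200. The labels do not say what these numbers mean. For each of the 10 genes, the difference is therefore given within both number ranges and with embryos left out.

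None of the 10 genes passed limma's test between transgenic and wild-type cortex, and 0% of all 25697 probes did (Benjamini-Hochberg adjusted p under 0.05). Fabp7 and Slc1a2 lay lower in all 3 transgenic embryos than in any wild-type embryo, by 0.34 and 0.35 on the log2 scale. Gja1 was bright in all 3 transgenic embryos and in 1 wild-type embryo, and dimmer in the other 2. The stem cell genes Pax6, Sox2 and Nes and the transporter gene Slc1a3 had group means within 0.09 of each other. 6 of the 10 genes lay above 0 (transgenic minus wild-type) and 4 below, with a median of 0.05, while 46.4% of all named genes lay above 0 with a median of -0.01. The count above 0 was 5 of 10 without transgenic embryo 1, 3 without wild-type embryo 2 and 4 without both. At an unadjusted limma p under 0.05, 2 of the 10 genes lay lower and 0 higher, beside 3.42% of all probes lower and 2.91% higher. These same genes, Fabp7 and Slc1a2, were the 2 whose groups did not overlap, both lower, beside 7.02% of all named genes lower and 5.5% higher without overlap.

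**Figure D1:**
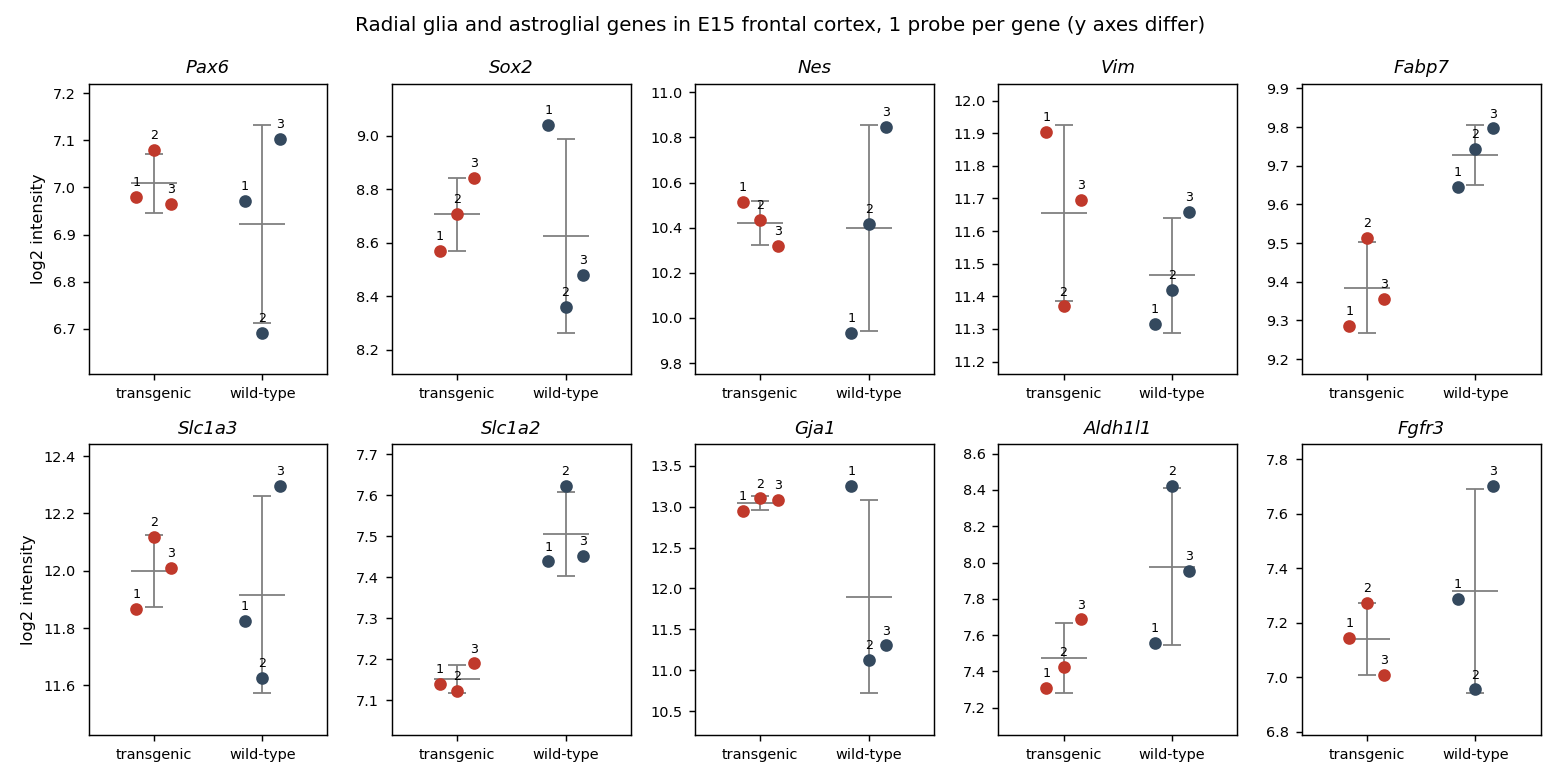
Log2 intensity of the 10 genes (y axis, which differs between panels) in transgenic (left, red) and wild-type embryos (right, blue), with 1 point per embryo, its number above it, and the mean ± SD as a bar (n = 3 each). The transgenic and wild-type points are apart for Fabp7 and Slc1a2, and the wild-type embryos spread more widely than the transgenic ones for 8 of the 10 genes.

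Pax6 and Sox2 are transcription factors that keep radial glia in the progenitor state. The only Pax6 probe was dim, with a mean at the 38.3 percentile of all probes. It read 6.98, 7.08 and 6.97 in transgenic embryos 1 to 3, against 6.97, 6.69 and 7.10 in wild-type embryos 1 to 3. The groups overlapped, wild-type embryo 2 was lowest, and the difference was 0.09 (SE 0.12, limma adjusted p = 0.893). It was -0.03 without wild-type embryo 2, and -0.12 and 0.19 in the lower and upper number ranges. At this brightness a change in Pax6 would be compressed towards 0, so the small difference does not show equal levels.

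Sox2 read 8.57, 8.71 and 8.84 in transgenic embryos, against 9.04, 8.36 and 8.48 in wild-type embryos. All 3 transgenic values lay inside the wild-type range, with wild-type embryo 1 at the top. The difference was 0.08 (SE 0.19, 95% interval -0.37 to 0.53), with a limma adjusted p of 0.940. A second Sox2 probe gave -0.11 (SE 0.26), and it placed wild-type embryo 3 second highest at 8.91 and transgenic embryo 3 highest at 8.93, so the probes ordered the embryos differently. Without wild-type embryo 2 the first probe gave -0.05, and it gave 0.09 and 0.07 in the lower and upper number ranges.

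Nes and Vim encode the intermediate filaments nestin and vimentin, which run through the radial fibre. Nes read 10.51, 10.43 and 10.32 in transgenic embryos, against 9.93, 10.42 and 10.85 in wild-type embryos. The transgenic values sat in the middle of a wild-type range 0.91 wide, from wild-type embryo 1 to wild-type embryo 3, and the difference was 0.02 (SE 0.22, limma adjusted p = 0.988). It was -0.21 without wild-type embryo 1, 0.25 without wild-type embryo 3, and -0.33 and 0.20 in the lower and upper number ranges. A dimmer Nes probe gave -0.23 (SE 0.17), again with wild-type embryo 3 highest but with transgenic embryo 3 lowest, at 7.88.

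Vim read 11.90, 11.37 and 11.70 in transgenic embryos, against 11.32, 11.42 and 11.66 in wild-type embryos. The groups overlapped and transgenic embryo 1 was highest. The difference was 0.19 (SE 0.16, limma adjusted p = 0.824), 0.07 without transgenic embryo 1 and 0.04 without it and wild-type embryo 2. In the lower and upper number ranges it was 0.24 and 0.16. Vimentin is also made by fibroblasts, endothelium and immature muscle, and transgenic embryo 1 had the highest muscle mean, 2.20 above the 6-array mean, and the highest meningeal and fibroblast mean, 1.74 above it. The part of those cells in the Vim signal was not tested.

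Fabp7 encodes brain lipid-binding protein, a fatty acid carrier of radial glia whose gene responds to Notch signalling in mouse. Probe ILMN_2738330 read 9.29, 9.51 and 9.36 in transgenic embryos, against 9.64, 9.74 and 9.80 in wild-type embryos. Every transgenic value lay below every wild-type value, with 0.13 between the nearest pair, transgenic embryo 2 and wild-type embryo 1. The means were 9.39 ± 0.12 in transgenic and 9.73 ± 0.08 in wild-type embryos (SD, n = 3 each), a ratio of 0.788. The difference of -0.34 (SE 0.09, 95% interval -0.55 to -0.13) did not pass over all probes (limma adjusted p = 0.759, unadjusted p = 0.00675). It ranged from -0.41 to -0.29 with 1 embryo left out, was -0.29 without transgenic embryo 1 and wild-type embryo 2, and was -0.51 and -0.26 in the lower and upper number ranges. Under median scaling it was -0.26 with an unadjusted limma p of 0.0771, so the unadjusted p depends on the normalization. Wild-type embryo 2, which stood apart in regional genes, lay between the other wild-type embryos here.

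Slc1a3 and Slc1a2 encode the glutamate transporters GLAST and GLT-1, which clear glutamate from the extracellular space. GLAST is the form of radial glia, and GLT-1 comes to dominate in mature astrocytes. Slc1a3 was bright in every embryo. It read 11.87, 12.12 and 12.01 in transgenic embryos, against 11.82, 11.63 and 12.30 in wild-type embryos. The transgenic values lay inside the wild-type range, and the difference was 0.08 (SE 0.18, 95% interval -0.34 to 0.51, limma adjusted p = 0.935). It was -0.06 without wild-type embryo 2, and -0.43 and 0.34 in the lower and upper number ranges.

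Slc1a2 had 4 probes, drawn from 3 transcript records. The brightest, ILMN_3123195, lay near the array median. It read 7.14, 7.12 and 7.19 in transgenic embryos, against 7.44, 7.62 and 7.45 in wild-type embryos. The groups were apart by 0.25, with wild-type embryo 2 highest. The means were 7.15 ± 0.03 in transgenic and 7.50 ± 0.10 in wild-type embryos (SD, n = 3 each). The difference was -0.35 (SE 0.08, 95% interval -0.54 to -0.17), with an unadjusted limma p of 0.00325 and an adjusted p of 0.759. It ranged from -0.39 to -0.29 with 1 embryo left out and was -0.31 and -0.37 in the lower and upper number ranges. With background correction it was -0.47, so the size of this dim gene's difference depends on how background is treated. The probe for another transcript record, ILMN_3076439, differed by -0.33 (SE 0.13) with overlapping groups, since transgenic embryo 3 read 7.36 and wild-type embryo 1 read 7.31. The other two probes were dimmer, at -0.04 and -0.11, and the mean over all 4 probes was -0.21.

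**Figure D2:**
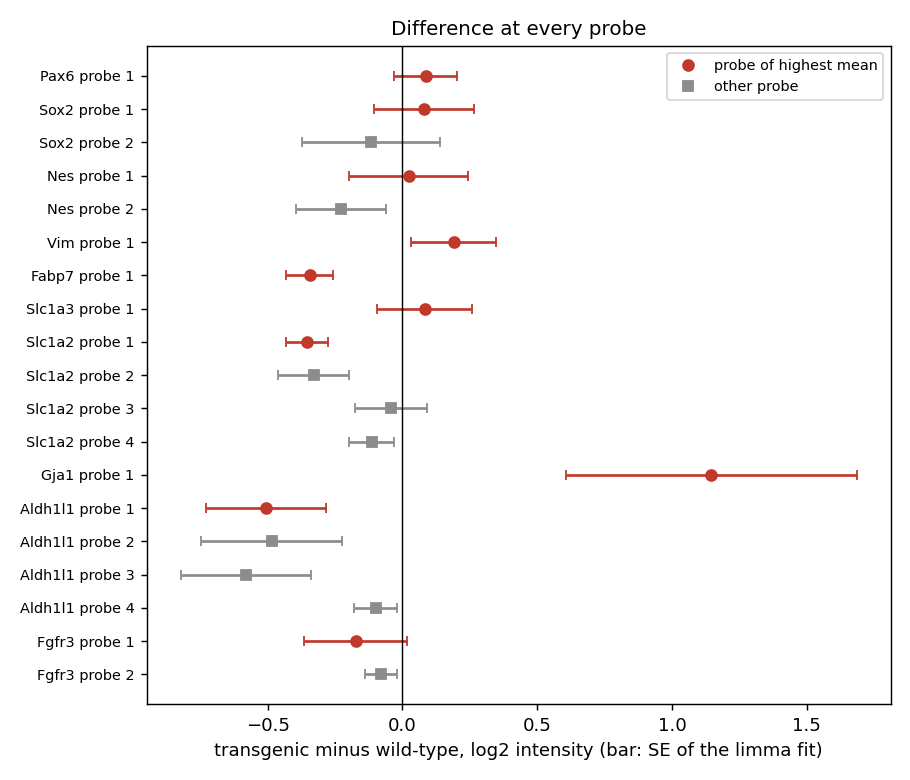
Transgenic minus wild-type log2 intensity (x axis) at each of the 19 probes, with the SE of the limma fit as a bar, circles for the probe of highest mean per gene and squares for the others. 13 probes lie below 0 and 6 above, and both probes of Sox2 and of Nes lie on opposite sides of 0.

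Gja1 encodes connexin 43, which forms gap junctions between radial glia and later between astrocytes, and is abundant in the meninges. It had the widest range of the 10 genes. Probe ILMN_1244291 read 12.95, 13.10 and 13.08 in transgenic embryos, against 13.25, 11.13 and 11.31 in wild-type embryos. Wild-type embryo 1 lay above all 3 transgenic embryos, and wild-type embryos 2 and 3 lay 1.64 or more below them. The difference of 1.15 (SE 0.54, a ratio of 2.21) did not pass (limma adjusted p = 0.759). It was 1.82 without wild-type embryo 1 (adjusted p = 0.0607), where only Ifitm3 passed over all probes, and 0.76 and 0.85 without wild-type embryo 2 or 3. It was 1.64 and 0.90 in the lower and upper number ranges.

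The same division of embryos appeared in Gjb2, the gene of connexin 26, which read 9.68, 10.18 and 9.67 in transgenic embryos, against 10.39, 7.33 and 7.33 in wild-type embryos. Gjb2 is made by the meninges and was on the wider astroglial list. Decorin, the fibroblast proteoglycan gene Dcn, read 12.62, 11.70 and 11.64 in transgenic embryos, against 11.84, 9.52 and 8.70 in wild-type embryos. Across the 6 embryos Pearson's r with Gja1 was 0.99 for Gjb2 and 0.93 for Dcn, which came 4th and 67th among 9070 genes brighter than the median. It was lower for the other fibroblast genes looked up, 0.82 for Pdgfra, 0.76 for Lum and 0.71 for Col3a1, which came 243rd, 403rd and 549th. The other genes among the nearest 5, a list drawn up after Gja1 had been seen to split the wild-type embryos, were Slc16a9, Anxa3, Bmp7 and C1qtnf2, with r of 0.99 each. No r with Gja1 is given for the rest of the meningeal and fibroblast genes. Some of them, such as Foxc1 and Col6a1, divided the embryos as Gja1 did, and others did not. Lgals1 read 10.39 in wild-type embryo 3, against 9.97 and 10.38 in transgenic embryos 2 and 3. Twist1 read 8.05 in wild-type embryo 3, against 7.51 and 7.67 in transgenic embryos 2 and 3. Igfbp2 was lower in wild-type embryo 1 than in wild-type embryo 2.

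All 16 meningeal and fibroblast genes with a probe lay above 0, with none past the adjusted limma threshold, 5 higher at an unadjusted p under 0.05 (beside 2.91% of all probes) and 4 higher with groups that did not overlap (beside 5.5% of all named genes). Their median was 1.29, 0.66 without transgenic embryo 1, 0.93 without wild-type embryo 2 and 0.48 without both, and 2.71 and 0.58 in the lower and upper number ranges. Their mean, relative to the 6-array mean, ranged from -0.03 to 1.74 in transgenic embryos and from -0.99 to -0.0006 in wild-type embryos. Endothelial genes lay above 0 for 11 of 11, with means of -0.03 to 0.37 in transgenic and -0.41 to 0.06 in wild-type embryos. Microglial genes did for 12 of 12, with means of 0.23 to 0.43 and -0.57 to 0.10. The share above 0 was 46.4% over all named genes. Both lists were likewise lowest in wild-type embryos 2 and 3. Unlike Gja1, the microglial mean of wild-type embryo 1, 0.10, lay below every transgenic one. At an unadjusted limma p under 0.05, 4 endothelial and 8 microglial genes were higher (beside 2.91% of all probes). Groups did not overlap for 3 endothelial and 7 microglial genes, all higher (beside 5.5% of all named genes). The part of these cells in the Gja1 signal was not tested.

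**Figure D3:**
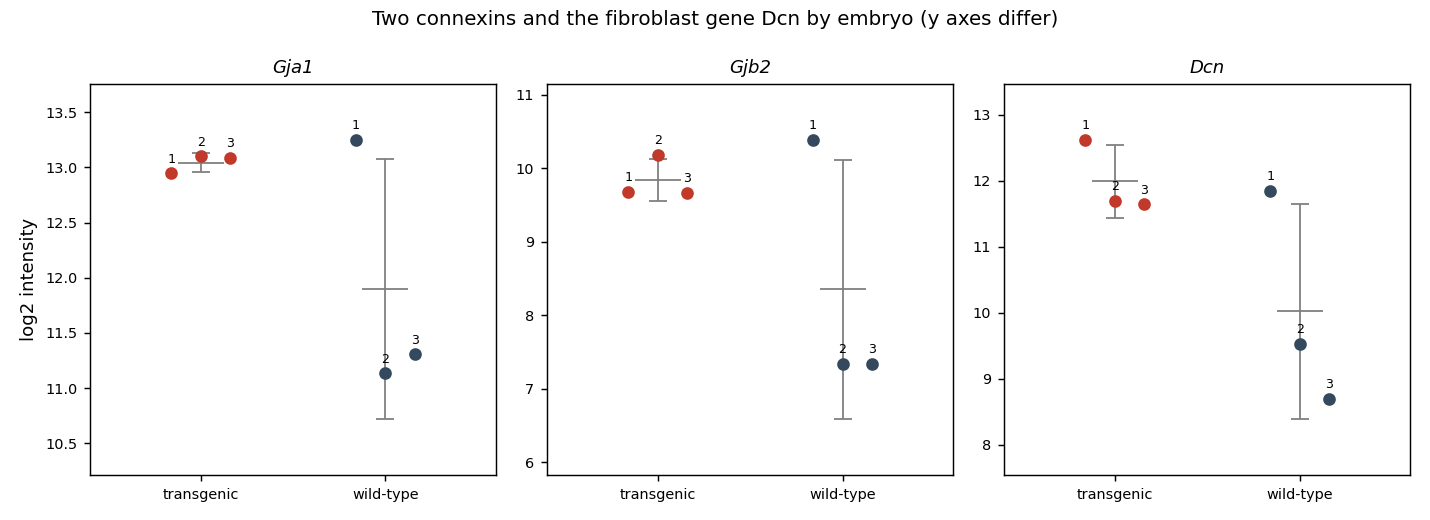
Log2 intensity (y axis, which differs between panels) of the connexin genes Gja1 and Gjb2 and the fibroblast gene Dcn in transgenic (left) and wild-type embryos (right), 1 numbered point per embryo with mean ± SD (n = 3 each). In all 3 panels wild-type embryo 1 sits with the transgenic embryos and wild-type embryos 2 and 3 sit below them.

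Aldh1l1 encodes a folate enzyme, 10-formyltetrahydrofolate dehydrogenase, used as a pan-astrocyte marker and present in radial glia. Its brightest probe, ILMN_3100276, read 7.31, 7.42 and 7.69 in transgenic embryos, against 7.56, 8.42 and 7.95 in wild-type embryos. Wild-type embryo 1 lay within the transgenic range, and the regionally distinct wild-type embryo 2 was highest. The difference was -0.51 (SE 0.22, a ratio of 0.705, limma adjusted p = 0.759). It was -0.28 without wild-type embryo 2, -0.72 without wild-type embryo 1, and -0.20 without wild-type embryo 2 and transgenic embryo 1. In the lower and upper number ranges it was -0.65 and -0.44. The next probes gave -0.49 (SE 0.26) and -0.58 (SE 0.24), and the dimmest gave -0.10.

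Fgfr3 encodes a fibroblast growth factor receptor of ventricular zone cells and of the astrocyte lineage. It read 7.14, 7.27 and 7.01 in transgenic embryos, against 7.29, 6.96 and 7.70 in wild-type embryos. Only wild-type embryo 3 stood out, above all others. The difference of -0.17 (SE 0.19, limma adjusted p = 0.867) was 0.02 without that embryo, and -0.56 and 0.02 in the lower and upper number ranges. The second Fgfr3 probe, at the 27.8 percentile of all probes, read 6.80 to 6.82 in transgenic and 6.89 to 6.90 in wild-type embryos. Its groups were apart, but by 0.07 only, and its difference of -0.08 had an unadjusted limma p of 0.234.

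**Figure D4:**
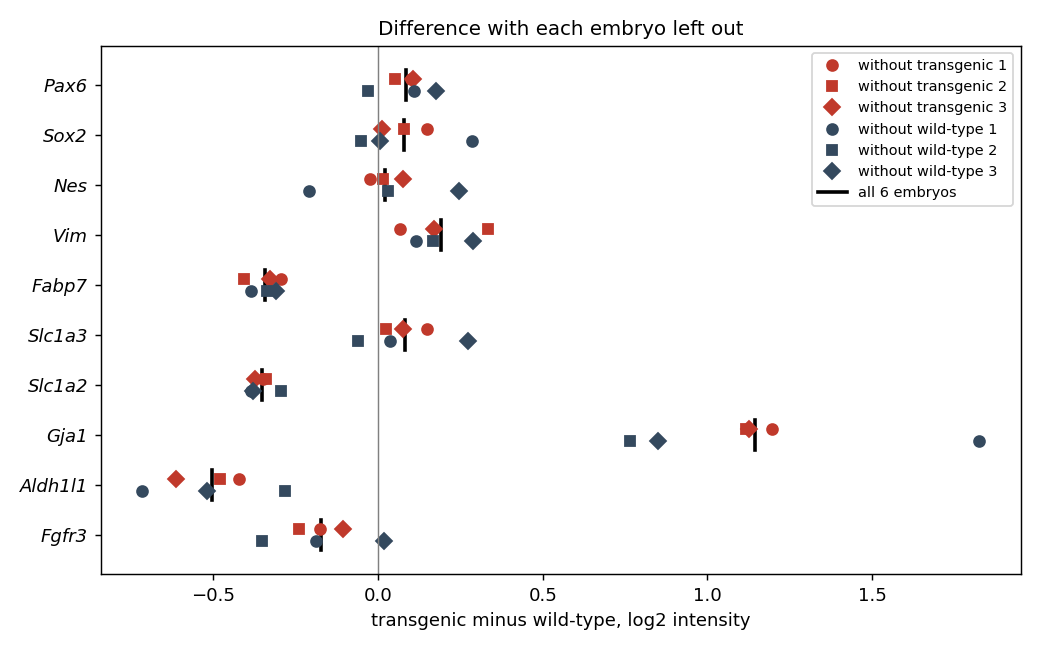
Transgenic minus wild-type log2 intensity (x axis) for each gene with all 6 embryos (black line) and with 1 embryo left out (red for a transgenic, blue for a wild-type embryo, shape for its number). Fabp7 stays between -0.41 and -0.29 and Slc1a2 between -0.39 and -0.29, while Gja1 moves between 0.76 and 1.82 with the wild-type embryo left out.

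For most of the 10 genes, though not over all named genes, the wild-type embryos varied more than the transgenic ones. The SD was smaller in transgenic embryos for 8 of the 10 genes, the exceptions being Vim and Fabp7, beside 45.2% of all named genes brighter than the median. 9 of the 10 genes, all but Vim, had their highest value in a wild-type embryo. That count was not made over all named genes and is not independent of the wider wild-type spread. Wild-type embryo 2 was lowest of all 6 for Pax6, Sox2, Slc1a3, Gja1 and Fgfr3, and wild-type embryo 3 was highest for Pax6, Nes, Fabp7, Slc1a3 and Fgfr3. The 10 genes did not follow 1 common pattern. Over the 6 embryos, which share their arrays among all genes, r was 0.89 between Pax6 and Slc1a3, 0.86 between Slc1a2 and Aldh1l1 and 0.85 between Fabp7 and Slc1a2, and -0.87 between Gja1 and Aldh1l1, among 45 pairs. 6 genes had the same sign in both number ranges, and Pax6, Nes, Slc1a3 and Fgfr3 did not.

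**Figure D5:**
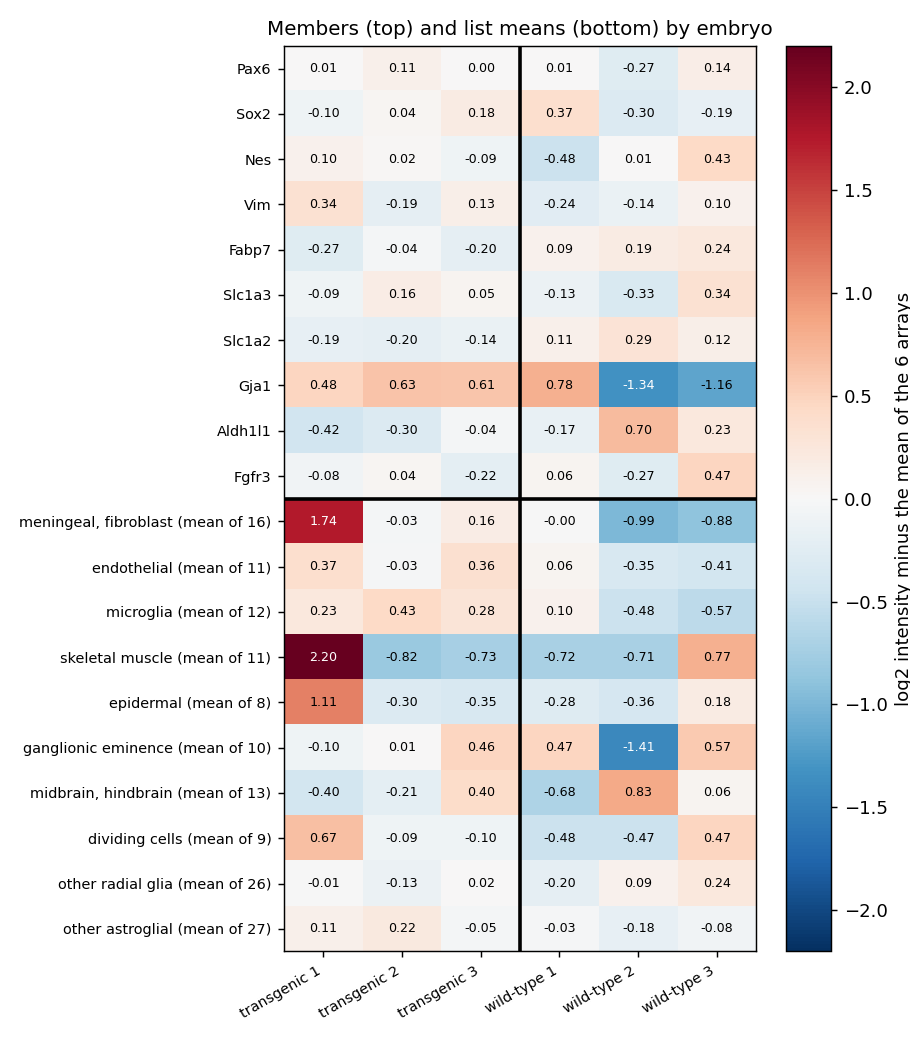
Log2 intensity minus the 6-array mean (colour and printed value) of the 10 genes (top rows) and mean of 10 gene lists (bottom rows) in each embryo, transgenic left and wild-type right. Gja1 is at -1.34 and -1.16 in wild-type embryos 2 and 3, where the meningeal and fibroblast mean is -0.99 and -0.88. The 2 differ more in transgenic embryo 1, with Gja1 at 0.48 and that mean at 1.74, and in wild-type embryo 1, at 0.78 and -0.0006.

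Promoter sequence is shown for Fabp7, Slc1a2 and Aldh1l1, which varied together over the 6 embryos (r of 0.72 to 0.86), and for Gja1, which ran against Aldh1l1. These 4 were chosen after their values were seen. The 250 bases before the RefSeq start are taken from assembly GRCm38.p6, plus strand, at chr10:57784673-57784922 for Fabp7, chr2:102706188-102706437 for Slc1a2, chr6:90550543-90550792 for Aldh1l1 and chr10:56377050-56377299 for Gja1, and capitals mark a motif match. The Slc1a2 window belongs to a start inside the annotated gene.
Fabp7: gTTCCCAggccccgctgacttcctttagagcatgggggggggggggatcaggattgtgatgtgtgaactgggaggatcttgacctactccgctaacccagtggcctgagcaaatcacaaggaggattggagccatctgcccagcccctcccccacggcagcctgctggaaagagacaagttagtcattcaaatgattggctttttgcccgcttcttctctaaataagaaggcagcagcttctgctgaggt
Slc1a2: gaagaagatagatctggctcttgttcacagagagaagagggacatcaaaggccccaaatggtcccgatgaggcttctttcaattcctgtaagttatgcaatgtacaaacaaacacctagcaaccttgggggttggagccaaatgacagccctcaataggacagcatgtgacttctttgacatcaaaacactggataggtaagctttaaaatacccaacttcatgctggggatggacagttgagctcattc
Aldh1l1: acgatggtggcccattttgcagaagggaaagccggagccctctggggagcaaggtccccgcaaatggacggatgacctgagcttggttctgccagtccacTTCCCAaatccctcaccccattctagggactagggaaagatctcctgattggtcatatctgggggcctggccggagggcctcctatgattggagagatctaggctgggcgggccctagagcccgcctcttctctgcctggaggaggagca
Gja1: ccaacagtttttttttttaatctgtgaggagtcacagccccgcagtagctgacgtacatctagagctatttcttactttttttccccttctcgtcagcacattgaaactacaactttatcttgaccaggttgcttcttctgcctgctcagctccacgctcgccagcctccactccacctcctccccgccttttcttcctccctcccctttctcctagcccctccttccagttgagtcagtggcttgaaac
3 motifs of factors known in radial glia were searched on both strands, and no matches overlapped. TGGGAA, bound by the Notch effector RBPJ, was present as its complement 249 to 244 bases before the Fabp7 start and 150 to 145 bases before the Aldh1l1 start, and 21.6% of all 32851 promoter windows hold it. The NFI sequence TTGGCA, in 12.3% of windows, and the SOX motif ATTGTT, in 9.42%, had no match in these 4 windows. Shorter forms were not searched. TTGGC, without the last base, stands in the Fabp7 window and as its complement in the Slc1a2 window.

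The wider lists showed no common move of radial glia. Of 26 other radial glia and ventricular zone genes with a probe, 10 lay above 0 and 16 below (median -0.07), and none passed the adjusted threshold in either direction, with 1 higher and 1 lower at an unadjusted limma p under 0.05 (beside 2.91% of all probes higher and 3.42% lower). The median was -0.04 without transgenic embryo 1 and wild-type embryo 2, and -0.13 and 0.01 in the lower and upper number ranges. Hes1, a Notch target that represses neurogenesis, read 9.56, 8.75 and 9.42 in transgenic embryos, against 8.53, 8.54 and 8.72 in wild-type embryos. It was the single gene of this list with groups apart, beside 5.5% of all named genes higher and 7.02% lower. Transgenic embryo 2 and wild-type embryo 3 were nearly level. The Hes1 difference was 0.65 (SE 0.21, limma adjusted p = 0.759), and 0.46 without transgenic embryo 1 and wild-type embryo 2. Named outside the rule for the lists, Hes5 and Notch1 lay below 0, at -0.48 (SE 0.37) and -0.24 (SE 0.30), with overlapping groups. Id4, an inhibitor of helix-loop-helix factors, differed by -0.66 (SE 0.27) with overlapping groups, and the receptor gene Fgfr2 by 0.26 (SE 0.13). The brightest genes of the list, Dbi and Mfge8, differed by 0.02 (SE 0.19) and 0.22 (SE 0.23).

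Of 27 other astroglial genes with a probe, 17 lay above 0 and 10 below (median 0.04), again with none past the threshold, and 0 at an unadjusted limma p under 0.05. The median was 0.11 without transgenic embryo 1, 0.09 without wild-type embryo 2 and 0.002 without both. Brevican, the matrix proteoglycan gene Bcan, differed by -0.65 (SE 0.29), Phgdh, the first enzyme of serine synthesis, by 0.43 (SE 0.19), and Sparc, a matrix glycoprotein gene also active in fibroblasts and vessels, by 1.06 (SE 0.49). Sparc read 13.43 in transgenic embryo 1 and 10.81 to 11.99 in the others, and differed by 0.50 without that embryo. The brightest genes, Cst3 and Nfib, differed by 0.15 (SE 0.15) and 0.35 (SE 0.60). The mature astrocyte genes Gfap, Aqp4 and S100b, singled out after their values were seen, had means at the 20.2, 45.1 and 8.88 percentiles of all probes.

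Genes of the progeny did not pass either, and at an unadjusted limma p under 0.05 only 2 neuronal genes did, Syt4 and Dcx, both lower (beside 3.42% of all probes lower). Of 9 intermediate progenitor genes 5 lay above 0 (median 0.05). Gadd45g, a growth arrest gene, differed by -0.003 (SE 0.34), Insm1, a zinc finger factor of delaminating progenitors, by 0.59 (SE 0.38), Neurog1 by -0.19 (SE 0.09, groups apart) and Hes6 by -0.19 (SE 0.15). Of 9 genes of dividing cells 8 lay above 0 (median 0.28), with means of -0.10 to 0.67 in transgenic and -0.48 to 0.47 in wild-type embryos. They were highest in transgenic embryo 1 and wild-type embryo 3, the embryos with muscle RNA, and Mcm6, Tyms, Cdk1 and Top2a differed by 0.53, 0.51, 0.59 and 0.24. The median of the dividing cell genes was 0.05 without transgenic embryo 1 and -0.03 without it and wild-type embryo 2. Of 13 neuronal genes 8 lay below 0 and 5 above (median -0.12). Their median was -0.03 without transgenic embryo 1, -0.28 without wild-type embryo 2 and -0.13 without both. Furthest above 0, and named outside the rule for the lists, were Tbr1 (1.09, SE 0.98), Neurod6 (0.87, SE 0.52) and Neurod2 (0.81, SE 0.80), with overlapping groups. Tbr1 read 7.09 in wild-type embryo 2, against 10.01 and 10.55 in wild-type embryos 1 and 3 and 9.09 to 11.16 in transgenic embryos. The differences of these genes without wild-type embryo 2 are not given. Dcx, a microtubule protein gene of migrating neurons, differed by -0.36 (SE 0.14) with groups apart, and Syt4, Mapt and Stmn2 by -0.56, -0.54 and -0.33 with overlapping groups. Without transgenic embryo 1, Dcx differed by -0.22 and Syt4 by -0.36.

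The 5 genes brighter than the median whose pattern over the 6 embryos was most like the mean of Pax6, Sox2, Nes, Vim and Fabp7 were Aktip, Gldc, Imp4, Fbrsl1 and 4930503L19Rik, with r from 0.97 to 0.99. Gldc, which encodes glycine decarboxylase, read at most 10.08 in transgenic embryos, against 9.83, 9.28 and 10.89 in wild-type embryos. For the mean of Slc1a3, Slc1a2, Gja1, Aldh1l1 and Fgfr3 they were Armcx3, Cpne2, Lamb3, Shh and Wfs1, with r from 0.96 to 0.99. Shh, the ventral patterning signal, read 7.49, 8.19 and 8.61 in transgenic embryos, against 9.13, 6.85 and 8.28 in wild-type embryos, lowest in wild-type embryo 2. These genes were picked as the nearest of 9070 over 6 embryos, so a high r follows from the picking. The members behind each mean did not vary alike, with r of -0.78 between Sox2 and Nes and -0.87 between Gja1 and Aldh1l1.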

How the data were processed

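RNA of 1 embryo was hybridised per array, per the labels' protocols, and samples were grouped by the labelled genotype, with numbers within a group that only name them. The members and gene lists were chosen with earlier results of these data known. The deposited log2 values were the main values. They equal the log2 of the deposited non-normalized intensities after quantile normalization, to within 5e-09, with no background correction. The intensity table has no detection p, and the submitters' processing notes name only BeadStudio as software. Without background subtraction, differences of dim probes are compressed.

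All 25697 probes were fitted with limma 3.58.1 in R 4.3.3 (transgenic minus wild-type, two-sided, by lmFit and eBayes with no covariate), with Benjamini-Hochberg adjustment over all probes and a threshold of 0.05. An exact test of 3 against 3 cannot give a p below 0.1 and was not used. The fit was tested on simulated data. 23978 probes had 1 gene in the platform annotation, 0 several and 1719 none, 23962 of them were found by gene identifier in RefSeq GRCm38.p6, and no symbol changed. Promoters matched for 10 of 10 genes. The labels call the wild-type embryos littermates without saying which embryos shared a litter. The number of arrays limits the precision.

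Besides the 10 genes, the naming rule picked per list the 2 genes of highest mean and up to 3 of smallest p. It also picked the 5 most like the radial glia and the astroglial members. Not every gene it picked is named in the text, and those of the endothelial and microglial lists are not. Genes named outside this rule are said to be so or serve to describe the embryos. Alternatives were background correction (normexp, offset 50), median scaling, cyclic loess, a brightness filter, array weights, the animal number range as a block or alone, embryos left out, and a mean over a gene's probes. The lists without transgenic embryo 1 and wild-type embryo 2, and within number ranges, were added after seeing the data.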

Additional observations from a re-analysis of the deposited data

How the results depend on the processing

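No member passed under any of the 14 alternatives with a test, and over these and the mean over a gene's probes, which has no test, the members' median lay between -0.08 and 0.12. Vim, Fabp7, Slc1a2, Gja1 and Aldh1l1 kept their sign in every alternative. The others did not, and the cause was not tested. With 1 embryo left out, Pax6 ranged from -0.029 to 0.177, Sox2 from -0.053 to 0.286, Nes from -0.209 to 0.246, Slc1a3 from -0.062 to 0.273 and Fgfr3 from -0.353 to 0.0199. Without transgenic embryo 1 and wild-type embryo 2, Pax6 was -0.0148 and Nes -0.0135. Fgfr3 was 0.0183 among animal numbers over 200. With the mean over all probes, Sox2 was -0.0175 and Nes -0.103. Leaving out 1 embryo gave 0 to 1 higher probes past the threshold, the 1 being Ifitm3 without wild-type embryo 1, and 0 lower. At an unadjusted p under 0.05, 749 probes were higher and 880 lower, 1629 in all. The total was 897 among the 12848 brighter probes, fewer being tested, 3097 with the number range as a block, 1005 without wild-type embryo 2 and 898 without it and transgenic embryo 1. Under median scaling the split was 1137 higher to 701 lower, and the median over all probes was -0.03. Pax6 was too dim for the brightness filter. No paired analysis was possible because the labels give no replicate numbers shared between the groups. Without detection p-values, how far the dim probes of Pax6, Slc1a2 and Fgfr3 stand above background is unknown.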

Other observations

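Other lists described the makeup of the tissue pieces, and no gene in them passed the adjusted limma threshold, while 4 choroid plexus genes and 0 genes of the ganglionic eminence, midbrain and hindbrain, muscle, epidermal, oligodendrocyte and erythroid lists had an unadjusted p under 0.05 (beside 2.91% of all probes higher and 3.42% lower). Choroid plexus genes lay above 0 for 6 of 8 (median 1.49, and 1.42 without transgenic embryo 1 and wild-type embryo 2), with means of 0.08 to 1.48 in transgenic and -1.28 to 0.17 in wild-type embryos. Msx1, a homeobox gene of the dorsal midline, differed by 1.20 (SE 0.20), Ecrg4 by 1.78 (SE 0.42) and the water channel gene Aqp1 by 2.15 (SE 0.61), each with groups apart. Otx2, which is on the midbrain and hindbrain list too, differed by -0.06 (SE 1.26) with overlapping groups. Ttr, the transthyretin gene, read 9.11, 13.57 and 14.57 in transgenic embryos, against 7.33, 7.38 and 13.49 in wild-type embryos. Ganglionic eminence genes lay above 0 for 7 of 10 (median 0.16, and -0.24 without wild-type embryo 2), midbrain and hindbrain genes for 6 of 13 (median -0.04, and 0.19 without wild-type embryo 2), skeletal muscle genes for 10 of 11 (median 0.50, and -0.49 without transgenic embryo 1), epidermal genes for 6 of 8 (median 0.24, and -0.09 without transgenic embryo 1), oligodendrocyte lineage genes for 3 of 6 (median -0.03) and erythroid genes for 2 of 6 (median -0.08). Pdgfra, a receptor gene of oligodendrocyte precursors and of fibroblasts, read 11.46, 9.90 and 9.98 in transgenic embryos, against 10.27, 8.53 and 8.62 in wild-type embryos, with wild-type embryos 2 and 3 lowest as for Gja1. Beside these, the medians of the meningeal and fibroblast, endothelial and microglial genes were 1.29, 0.43 and 0.66, with 5, 4 and 8 genes at an unadjusted p under 0.05.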
